A study of Mus musculus with 10 samples.

Results

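The 7 genes of purine nucleoside handling are described here in the terminal ileum of mice after vertical sleeve gastrectomy (VSG), surgery that leaves a narrow tube of stomach. They are Slc28a2 (ENSMUSG00000027219), Gm14085 (ENSMUSG00000079071), Nt5e (ENSMUSG00000032420), Slc28a1 (ENSMUSG00000025726), Slc29a1 (ENSMUSG00000023942), Ada (ENSMUSG00000017697) and Xdh (ENSMUSG00000024066), 7 of the 36401 genes in the files. They were chosen by symbol with earlier results of these libraries known, and the difference between VSG and sham libraries was part of that choice. Their values in that comparison are therefore a description, and the counts of members past a threshold support nothing by themselves.

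Nucleotides released by cells or by food are cut outside the cell by ecto-enzymes, and Nt5e (CD73), anchored in the outer membrane, takes the last step from AMP to adenosine. Sodium-coupled carriers of the concentrative family bring nucleosides into the enterocyte, Slc28a2 (CNT2) with a preference for purine nucleosides and Slc28a1 (CNT1) for pyrimidine nucleosides, while Slc29a1 (ENT1) lets them pass down their gradient. Inside, Ada turns adenosine into inosine, and Xdh oxidises hypoxanthine to xanthine and uric acid.

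The study compared 5 libraries of total RNA from terminal ileum of VSG mice with 5 from sham-operated, pair-fed mice (SPF), all male C57Bl6. The VSG mice ate ad libitum after surgery, and the SPF mice were given the amount that the VSG mice ate. Both groups had received a diet with 60% of energy from fat for 6 weeks before surgery at 8 weeks of age, and Osmolite, a liquid diet, over 4 days around it. Tissue was taken about 8 weeks later, after a night without food and 1 hour after a gavage of 0.5 mL Osmolite. The libraries held 15364651 to 30401105 estimated counts in VSG and 16848364 to 34058181 in SPF. The labels do not say that each library is 1 mouse, and p-values measure only the spread between these libraries.

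Marker genes of the ileum were high in 7 libraries and low in 3. Gata4, which encodes a regulator of the jejunal and duodenal gene program, had 109.5 to 183.5 CPM (read counts scaled to library size, normalised) in VSG 2, SPF 2 and SPF 4, and 1.72 to 6.28 CPM in the other 7 libraries, with VSG 3 nearest below the limit of 20 CPM and SPF 2 nearest above it. The summed level of 5 ileal markers (Fabp6, Slc10a2, Fgf15, Osta and Ostb) was 353 to 539 CPM in the 3 libraries against 4171 to 8984 CPM in the 7, and none of these markers was at 0. Markers of the upper small intestine (Gata4, Lct, Onecut2, Adh6a, Gip and Pdx1) summed to 2790 to 3226 CPM in the 3 against 23.6 to 57.1 CPM in the 7. The 3 were not uniform, with Onecut2 at 2.91 to 137 CPM and Pdx1 at 0.032 to 14.5 CPM among them. Each result below is given over all 10 libraries and over the 4 VSG and 3 SPF libraries with Gata4 below 20 CPM. That split rests on a measured gene, not on a label.

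Slc28a2 and Gm14085 have to be read together, because they are closely related copies that share part of their sequence. Gm14085 carries the name Slc28a2b in RefSeq, and both lie on the plus strand of chromosome 2 with 0 protein-coding genes annotated between them. In the transcripts of GENCODE M21 (GRCm38), both have a coding sequence of 1983 bases, and these are 94.55% identical, with 108 differing bases. The longest run without a difference is 192 bases. Of all 50-base stretches of their transcripts, the read length used here, 35.4% of those of Slc28a2 and 30.3% of those of Gm14085 occur in the other gene. For Nt5e the share found in any other gene was 0.128%, for Xdh 7.14%, and for Slc28a1, Slc29a1 and Ada 0%. The coding stretch where the copies differ most, bases 385 to 474 with 37 differences, shows the sequence by which reads of the copies can be told apart. Capitals mark the bases that differ.

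Slc28a2: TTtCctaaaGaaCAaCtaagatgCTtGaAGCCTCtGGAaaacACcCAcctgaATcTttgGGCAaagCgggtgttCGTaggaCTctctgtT
Gm14085: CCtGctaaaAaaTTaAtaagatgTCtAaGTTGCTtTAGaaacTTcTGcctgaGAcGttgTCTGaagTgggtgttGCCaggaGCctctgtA

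The promoters of both copies are shown because their levels ran side by side across the libraries. They cover 250 bases before to 50 bases after the RefSeq start, at chr2:122426185-122426484 for Slc28a2 and chr2:122484691-122484990 for Gm14085 (GRCm38.p6, plus strand). The deposited files use mm9, so these positions do not apply to their build. Capitals mark matches on either strand to the GATA words AGATAA and AGATAG (with A or T as first letter), and to the CDX words TTTATG and TTTATT.

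Slc28a2: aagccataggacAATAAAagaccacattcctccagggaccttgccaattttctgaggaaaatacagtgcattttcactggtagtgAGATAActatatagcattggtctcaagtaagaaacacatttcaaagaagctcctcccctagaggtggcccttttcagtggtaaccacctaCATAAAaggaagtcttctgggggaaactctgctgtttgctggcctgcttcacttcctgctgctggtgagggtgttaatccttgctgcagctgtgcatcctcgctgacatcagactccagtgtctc
Gm14085: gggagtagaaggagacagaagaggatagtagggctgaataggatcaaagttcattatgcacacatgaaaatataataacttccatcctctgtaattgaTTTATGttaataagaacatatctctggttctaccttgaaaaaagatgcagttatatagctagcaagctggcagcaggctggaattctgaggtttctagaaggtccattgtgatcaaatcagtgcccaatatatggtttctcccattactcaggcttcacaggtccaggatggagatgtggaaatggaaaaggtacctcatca

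The Slc28a2 promoter held a GATA word at position -165 and CDX words on the reverse strand at -238 and -75, none overlapping another. The Gm14085 promoter held a CDX word at -152 and no GATA word. Of 32851 promoters of this length, 29.8% held a GATA word and 27.6% a CDX word, so such matches are common. The promoters of Nt5e, Slc28a1 and Ada held neither. Of the 8 promoters of Slc29a1, number 3 held a GATA word at -236 and a CDX word at -88, and the others held neither. No promoter was found for Xdh.

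Slc28a2 separated the groups in the 7 libraries with low Gata4 and not in all 10. It stood at 158, 186, 208, 179 and 271 CPM in VSG 1 to VSG 5, against 45.2, 233, 57.6, 140.4 and 52.2 CPM in SPF 1 to SPF 5. The 5 VSG libraries lay within 158 to 271 CPM, while SPF 1, SPF 3 and SPF 5 were low and SPF 2 and SPF 4, 2 of the libraries with high Gata4, lay inside the VSG range and just below it. Over all 10 libraries the mean was 200.3 ± 43.5 CPM in VSG and 106 ± 81.0 CPM in SPF (SD, n = 5 each). The fold change was 0.92 ± 0.43 on the log2 scale (SE; 95% bounds -0.03 and 1.88; edgeR adjusted p = 0.977). In the 7 libraries the mean was 204 ± 49.4 CPM in VSG (SD, n = 4) and 51.7 ± 6.19 CPM in SPF (SD, n = 3). That is a log2 fold change of 1.98 ± 0.22, or 3.95-fold (95% bounds 2.80 and 5.59; edgeR adjusted p = 0.0855), the second lowest p of 15911 genes. The adjusted p was 0.025 with no filter on low counts, 0.0466 with limma-voom and 9.64e-14 with DESeq2, all under 0.05. Over the settings tried it ran from 9.64e-14 to 0.619, the latter with edgeR and a replicate block, which left out VSG 4. Over all 10 libraries the log2 fold change ran from 0.75 without SPF 1 to 1.44 without SPF 2. It was 1.5 with the Gata4 class as a covariate.

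Gm14085 gave the same picture at lower counts. Its values were 48.6, 56.3, 59.8, 53.1 and 84.9 CPM in VSG 1 to VSG 5, against 13.2, 69.5, 20.4, 40.8 and 15.5 CPM in SPF 1 to SPF 5, so the same 3 SPF libraries were low. On the log2 scale the fold change was 0.93 ± 0.42 over all 10 libraries (95% interval -0.0013 to 1.85, edgeR adjusted p = 0.977) and 1.92 ± 0.24 in the 7 (edgeR adjusted p = 0.131). The count of Slc28a2 was 2.83 to 3.48 times that of Gm14085 in every library, with a median of 3.36. How reads that match both copies were split is unknown, so the values of the single copies are uncertain. With the counts of both summed into 1 gene, the log2 fold change was 0.92 over all 10 libraries and 1.97 in the 7 (edgeR adjusted p = 0.118).

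**Figure D1:**
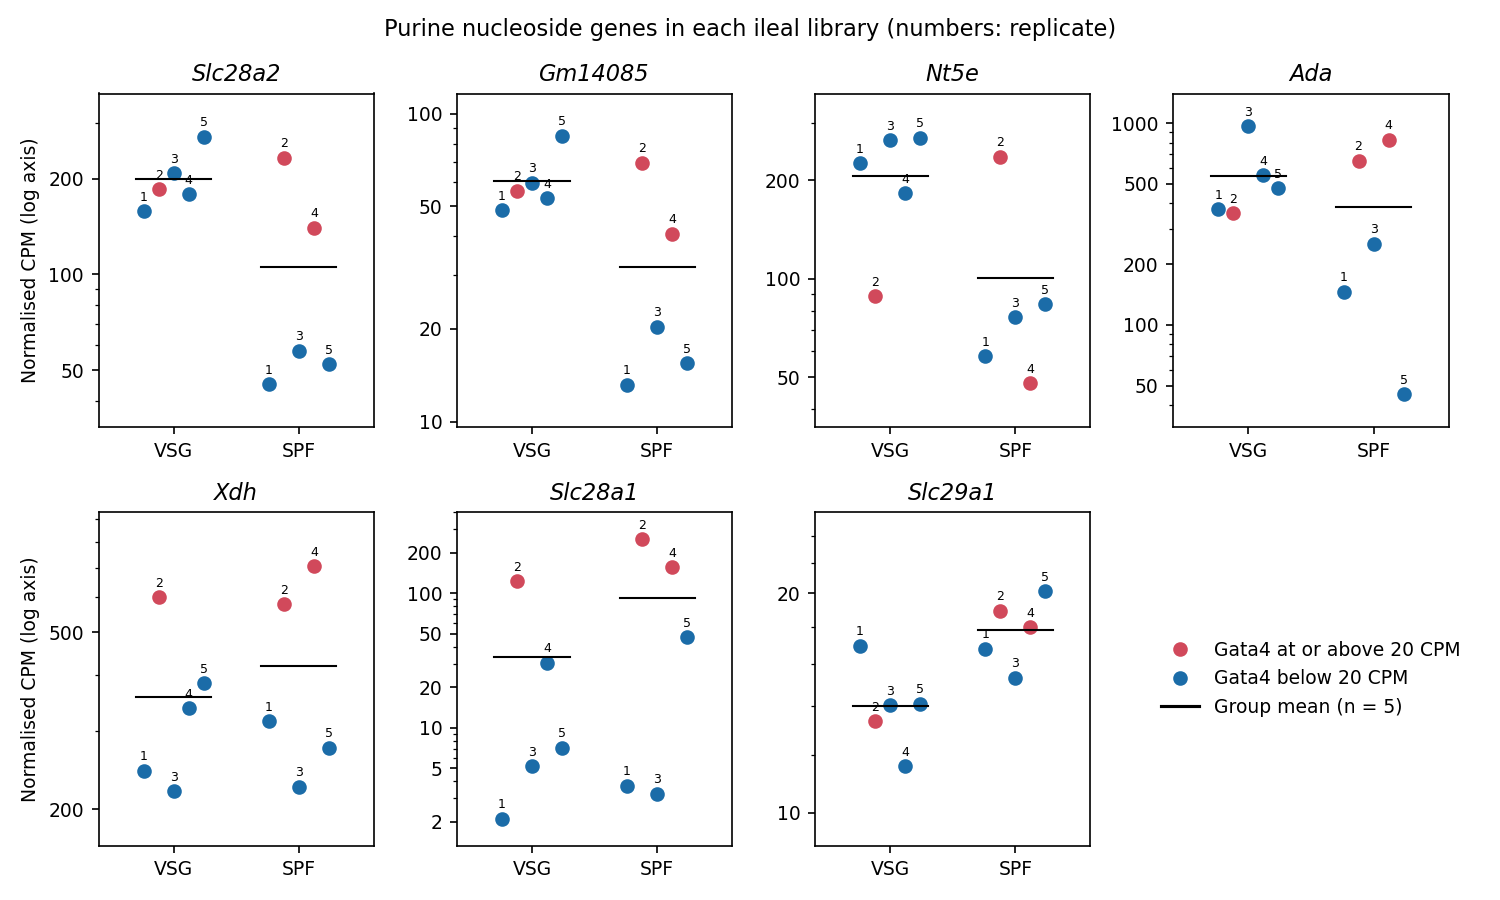
Normalised CPM (vertical axes, log scale) of the 7 genes in each VSG library (left) and SPF library (right), 1 panel a gene, with the replicate number at each point and lines at the group means (n = 5). Colour marks libraries with Gata4 at or above 20 CPM (VSG 2, SPF 2 and SPF 4) and below it. For Slc28a2, Gm14085, Nt5e and Ada every VSG library with low Gata4 lies above every SPF library with low Gata4.

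**Figure D2:**
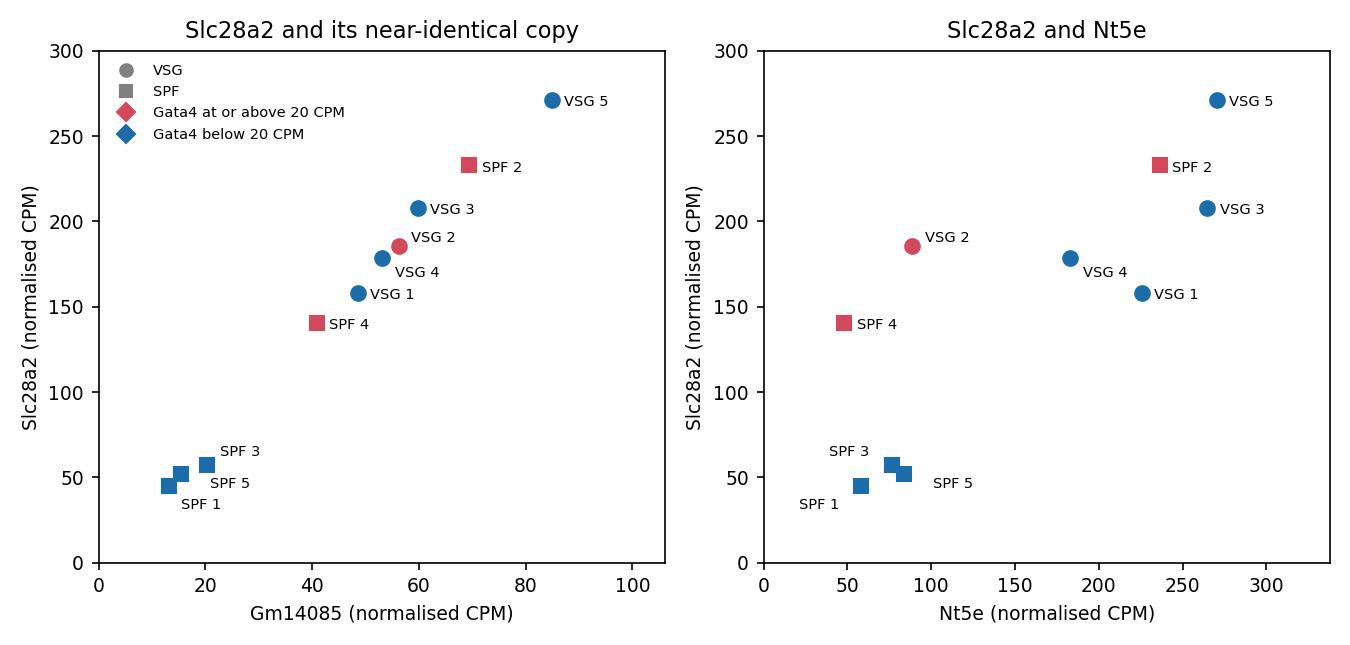
Slc28a2 CPM (vertical axes) against Gm14085 CPM (left) and Nt5e CPM (right), 1 point a library, circles for VSG and squares for SPF, coloured by Gata4 class. Slc28a2 and Gm14085 keep a count ratio of 2.83 to 3.48 in all 10 libraries, while VSG 2 and SPF 4 lie to the left of libraries with a like level of Slc28a2 in the Nt5e panel.

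Nt5e, the ecto-enzyme that makes adenosine, had 226, 88.6, 265, 183 and 270.2 CPM in VSG 1 to VSG 5, against 58.2, 236, 76.4, 48.0 and 83.7 CPM in SPF 1 to SPF 5. VSG 2 was the lowest VSG library and SPF 2 by far the highest SPF library, and both are libraries with high Gata4. The mean over all 10 libraries was 206 ± 74.6 CPM in VSG and 100.5 ± 77.2 CPM in SPF (SD, n = 5 each). This is a log2 fold change of 1.04 ± 0.45 (95% interval 0.05 to 2.02, edgeR adjusted p = 0.977). It ran from 0.88 without SPF 4 to 1.63 without SPF 2. With the Gata4 class as a covariate it was 1.145, with a 95% interval that included 0 (-0.02 to 2.31). Nt5e in the 7 libraries averaged 236 ± 40.4 CPM in VSG (SD, n = 4) and 72.8 ± 13.2 CPM in SPF (SD, n = 3), with no overlap. Its log2 fold change there was 1.70 ± 0.21, or 3.25-fold (95% bounds 2.35 and 4.49; edgeR adjusted p = 0.118), the third lowest p. The adjusted p was 0.0384 with no filter on low counts and 2.95e-11 with DESeq2. Over the settings tried it ran up to 0.619, with edgeR and a replicate block, which left out VSG 4.

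Ada, which deaminates adenosine, varied widely within both groups. It stood at 375, 357, 964, 553 and 477 CPM in VSG 1 to VSG 5, against 146, 651, 253, 827.5 and 45.3 CPM in SPF 1 to SPF 5. SPF 2 and SPF 4 lay within the VSG range, and SPF 5 was the lowest of all libraries. Over all 10 libraries its log2 fold change was 0.50 ± 0.63 (edgeR adjusted p = 0.977), and ran from 0.21 without VSG 3 to 1.01 without SPF 4. Ada in the 7 libraries averaged 592 ± 258 CPM in VSG (SD, n = 4) and 148 ± 104 CPM in SPF (SD, n = 3). That is a log2 fold change of 2.00 ± 0.56 (95% bounds 0.72 and 3.28; edgeR adjusted p = 0.633, rank 138 of 15911), and it ran from 1.56 without SPF 5 to 2.63 without SPF 3. DESeq2 gave an adjusted p of 0.0183, over a range up to 0.977 in the other settings.

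Xdh, the enzyme of the last steps to uric acid, did not separate the groups. It had 244, 599.6, 219, 338 and 385 CPM in VSG 1 to VSG 5, against 316, 579, 225, 705 and 275 CPM in SPF 1 to SPF 5. The 3 highest values were those of VSG 2, SPF 2 and SPF 4. Its log2 fold change was -0.23 ± 0.37 over all 10 libraries and 0.13 ± 0.24 in the 7 (95% interval -0.41 to 0.66, edgeR adjusted p = 0.911), and its sign turned over all 10 libraries without SPF 4 and in the 7 without VSG 5.

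Slc28a1, the pyrimidine-preferring carrier, was low in most libraries with low Gata4. It stood at 2.11, 124, 5.20, 30.6 and 7.12 CPM in VSG 1 to VSG 5, against 3.70, 253.5, 3.23, 156 and 47.3 CPM in SPF 1 to SPF 5. Outside VSG 2, SPF 2 and SPF 4, the highest values were those of SPF 5 and VSG 4, and the groups overlapped. The log2 fold change was -1.46 ± 1.29 over all 10 libraries (95% interval -4.28 to 1.37) and -0.68 ± 1.08 in the 7 (-3.15 to 1.79), where it turned to 1.70 without SPF 5, so no direction can be given at this spread. Its value over all 10 libraries was -3.03 without VSG 2 and -0.63 without SPF 2.

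Slc29a1, the equilibrative carrier, had a narrow range. It had 17.0, 13.4, 14.1, 11.6 and 14.1 CPM in VSG 1 to VSG 5, against 16.8, 18.9, 15.3, 18.0 and 20.1 CPM in SPF 1 to SPF 5. VSG 1 lay within the SPF range, and the other VSG libraries lay below every SPF library. The difference was -0.35 ± 0.14 on the log2 scale over all 10 libraries (95% interval -0.65 to -0.05, edgeR adjusted p = 0.977) and -0.30 ± 0.18 in the 7 (-0.71 to 0.12, adjusted p = 0.767). All 7 members, from Slc28a2 to Slc29a1, passed the filter on low counts in both fits, and their lowest estimated count in any library ran from 54 for Slc28a1 to 3247 for Xdh.

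**Figure D3:**
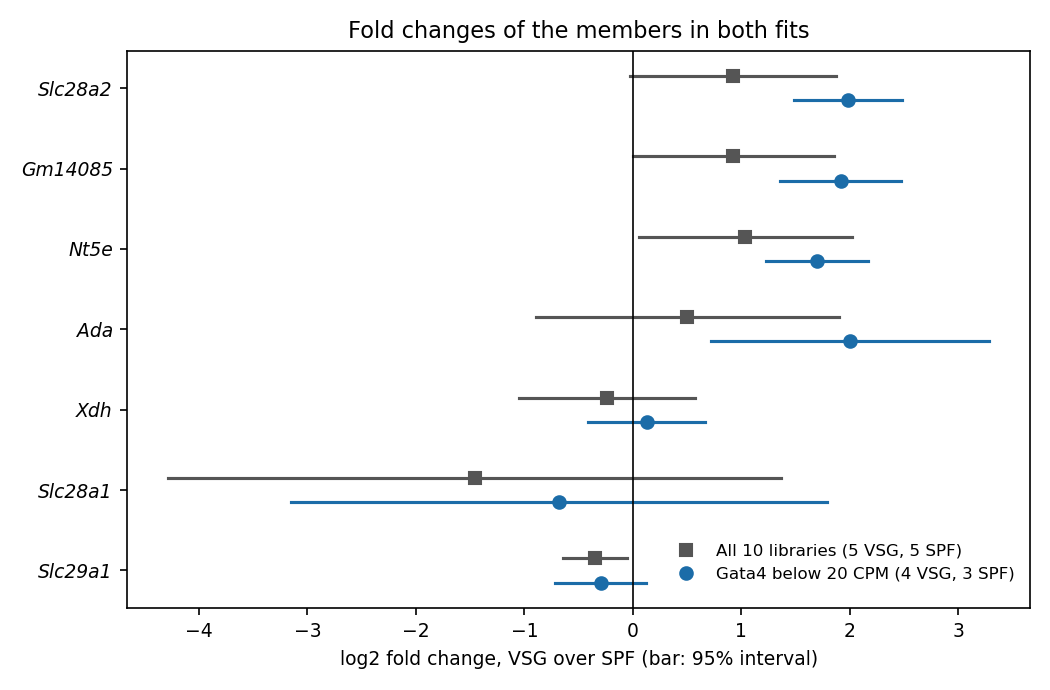
Log2 fold change of VSG over SPF (horizontal axis) for the 7 genes with 95% intervals as bars, over all 10 libraries (squares) and over the 4 VSG and 3 SPF libraries with Gata4 below 20 CPM (circles). In the 7 libraries the intervals of Slc28a2 (1.49 to 2.48), Gm14085, Nt5e (1.23 to 2.17) and Ada (0.72 to 3.28) lie above 0, and those of Xdh, Slc28a1 and Slc29a1 include 0.

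Over all 10 libraries, 0 of the 7 genes were called by edgeR's quasi-likelihood test at an adjusted p under 0.05, and neither was any of the 15678 genes tested (0%). DESeq2 called 11 of 15629 genes (0.0704%), none of the 7. At an unadjusted edgeR p under 0.05, 1 member was higher (Nt5e) and 1 was lower (Slc29a1), as were 1.88% and 1.91% of all genes, 3.8% in either direction. For 0 of the 7 did the groups fail to overlap, against 0.255% of all genes with every VSG library higher and 0.293% with every VSG library lower. In the 7 libraries edgeR again called 0 members and 0 of 15911 genes (0%). There 4 members had an unadjusted p under 0.05 with VSG higher (3.7% of all genes) and 0 with VSG lower (3.26%), where all genes came to 6.96% in either direction. For 4 members every VSG library was above every SPF library (4.32% of all genes), and for 0 was every one below (3.79%). Since this contrast was used to choose the genes, nothing is read from these counts. DESeq2 called 83 of 15861 genes (0.523%) in the 7 libraries, with Slc28a2, Gm14085, Nt5e and Ada among them.

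The libraries with high Gata4 had more Slc28a1 and Xdh. Slc28a1 stood at 124 to 253.5 CPM in VSG 2, SPF 2 and SPF 4 against 2.11 to 47.3 CPM in the other 7, and Xdh at 579 to 705 against 219 to 385 CPM. These are 2 of the 7 genes whose ranges did not overlap with the 3 libraries higher, as for 6.08% of all genes, and 0 were lower throughout, as for 5.64%. The other 5 overlapped. Within the 3 libraries, Slc28a2 in VSG 2 (186 CPM) lay between SPF 2 (233) and SPF 4 (140.4), and Nt5e in VSG 2 (88.6 CPM) between SPF 2 (236) and SPF 4 (48.0), so with 1 VSG and 2 SPF libraries the groups were not apart for either gene.

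A fit with Gata4 class, surgery and their interaction, added after the data were seen, set the difference between VSG and SPF in the 7 libraries against that in the 3, which hold 1 VSG library and 2 SPF libraries. That lone VSG library is assumed to vary like the others, and the genes were chosen on the contrast in the 7, so the values are a description. The log2 fold change of Slc28a2 was higher by 1.99 in the 7 (95% interval 0.95 to 3.03, edgeR adjusted p = 0.795), that of Nt5e by 2.38 (0.47 to 4.29, adjusted p = 0.805) and that of Ada by 3.05 (0.72 to 5.39, adjusted p = 0.795). For Slc28a1, Slc29a1 and Xdh it was 0.05, 0.17 and 0.22 (adjusted p 0.998 to 0.999). Of 15678 genes, 0 were called (0%).

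Markers of epithelium and of other cell types also differed in level between the libraries. In the 7 libraries the summed level of 7 enterocyte markers (Vil1, Alpi, Fabp2, Lgals4, Cdh17, Sis and Anpep) was 23733 to 35915 CPM in VSG and 15142 to 27224 CPM in SPF, with 7 of 7 fold changes above 0, and 6 or 7 of 7 under the other scalings and with any library left out. B cell markers summed to 15.9 to 183 CPM in VSG and 74.1 to 239 in SPF, with 7 of 7 lower (6 of 7 without SPF 3), and T cell markers to 11.4 to 27.1 and 20.3 to 45.9, with 6 of 6 lower. Fibroblast markers summed to 236 to 393 CPM in VSG and 196 to 459 in SPF, with 6 of 6 lower, and endothelial markers to 50.2 to 70.5 and 35.4 to 91.5, with 4 of 5 lower. Smooth muscle markers ranged from 637 to 1377 CPM in VSG and from 256 to 3497 in SPF, with 6 of 6 lower, but 6 of 6 higher without SPF 5, the library with the highest sum. None of these markers was at 0 in all libraries, and the part of these cells in the values of the 7 genes was not tested. In bulk RNA fewer cells of a type and less RNA per cell cannot be told apart.

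The levels in the 7 libraries can also be written relative to the enterocyte sum, as a description. Per 1000 CPM of enterocyte markers, Slc28a2 had 5.14 to 7.56 CPM in VSG and 2.09 to 3.44 in SPF, Gm14085 1.53 to 2.36 and 0.607 to 1.02, and Ada 13.3 to 31.0 and 2.99 to 9.28. Nt5e had 9.51, 8.51, 5.26 and 7.52 CPM in VSG 1, VSG 3, VSG 4 and VSG 5, against 2.68, 2.81 and 5.53 in SPF 1, SPF 3 and SPF 5. Only SPF 5 lay above the lowest VSG library, VSG 4. The groups overlapped for the other members. Xdh had 7.05 to 10.71 CPM in VSG and 8.25 to 18.15 in SPF. Slc29a1 had 0.333 to 0.714 and 0.563 to 1.33, and Slc28a1 0.0889 to 0.879 and 0.119 to 3.12. This ratio was added after the data were seen.

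The genes most like Slc28a2 and Nt5e across libraries were found by the root mean square difference of log2 CPM after centring each gene on its mean, among 11012 genes over all 10 libraries and 10941 over the 7. The nearest to Slc28a2 was Gm14085 in both sets, at 0.082 over 10 libraries and 0.0939 over 7. In the 7, Nt5e came next, at 0.228, followed by Gm2061 at 0.397. Over all 10 libraries the next were 2010107G12Rik at 0.446 and Klf10, a zinc finger transcription factor, at 0.489. For Nt5e over the 7, Socs3, an inhibitor of cytokine signalling, was nearest at 0.222, then Slc28a2 at 0.228 and Gm14085 at 0.246. Nt5e over all 10 libraries was nearest to Bambi-ps1 (0.446), Arnt2, a partner of basic helix-loop-helix factors (0.485), and Klf6, a zinc finger transcription factor (0.494). Slc28a2 and Nt5e were both chosen with the difference between VSG and SPF known, and that difference was not removed here. Nothing is therefore read from their closeness in the 7. The part of shared reads in the closeness of Slc28a2 and Gm14085 was not tested.

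Most other genes of nucleotide and nucleoside handling had smaller fold changes. Across 8 lists with 87 genes, 85 were found in the files, and 80 were tested in the 7 libraries with a median log2 fold change of -0.11, against -0.05 for all genes tested there. At an unadjusted edgeR p under 0.05, 9 of the 80 were higher, as were 3.7% of all genes, and 4 were lower, as were 3.26%, and 0 were called. For 7 of the 80 every VSG library was above every SPF library (4.32% of all genes), and for 4 every one was below (3.79%). Slc28a2, Gm14085, Nt5e and Ada, which were chosen on this contrast, are among the 9 and among the 7, so nothing is read from these counts. All 10 libraries allowed 81 to be tested, of which 2 were higher (Nt5e and P2ry2) and 4 lower (Slc29a1 among them) at an unadjusted p under 0.05, beside 1.88% and 1.91% of all genes. The median log2 fold change there was -0.07, against -0.05 for all genes.

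Beside Ada, the gene of purine deamination with the largest difference was Gda, which turns guanine into xanthine. It stood at 347 to 549 CPM in VSG and 182 to 238 CPM in SPF in the 7 libraries, a log2 fold change of 1.23 ± 0.21 (edgeR adjusted p = 0.356), and at 859.7 to 1049 CPM in the 3 libraries with high Gata4. The adenosine kinase Adk, which returns adenosine to AMP, had 109 to 148 CPM in VSG and 102 to 177 in SPF in the 7 libraries, a log2 fold change of -0.10, and 44.7 to 69.4 CPM in the other 3. Hprt, which salvages hypoxanthine and guanine, had a log2 fold change of -0.03, and Pnp, which splits inosine and guanosine, of -0.11. These 3 were picked after their values were seen. Of the 12 tested genes of salvage and deamination, 5 were higher and 7 lower in the 7 libraries, and 9 were higher and 3 lower without SPF 3.

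Of 16 genes from the families listed under extracellular nucleotide breakdown, 10 had higher values in VSG in the 7 libraries. It was 8 of 16 with upper quartile scaling or library totals, and 6 of 16 over all 10 libraries. The alkaline phosphatases Alpi and Akp3 also had higher values, with log2 fold changes of 0.83 ± 0.29 and 0.72 ± 0.31 (edgeR adjusted p 0.645 and 0.704). Alpi is also 1 of the 7 enterocyte markers. Akp3 had a log2 fold change of -2.86 over all 10 libraries, where SPF 4 alone stood at 265 CPM, and of 0.22 without SPF 4. Enpp3, an ectonucleotidase, had 208.8 to 375 CPM in the 3 libraries with high Gata4 and 3.48 to 8.92 CPM in the 7, with a log2 fold change between VSG and SPF of -0.10 in the 7. The cytosolic nucleotidase Nt5c2 had a log2 fold change of 0.53 ± 0.22 there and Nt5c3l of -0.50 ± 0.20 (edgeR adjusted p 0.704 and 0.696).

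Of the other nucleoside carriers, none reached an unadjusted p under 0.05 in the 7 libraries. Slc28a3, the carrier of both purine and pyrimidine nucleosides, had 23.0 to 31.3 CPM in VSG and 21.6 to 24.6 CPM in SPF, a log2 fold change of 0.23 ± 0.15. Slc29a2, Slc29a3 and Slc29a4, of the equilibrative family, had log2 fold changes of -0.29, -0.13 and -0.17. Of 9 tested receptors for adenosine and nucleotides, 2 were higher and 7 lower in the 7 libraries, with a median log2 fold change of -0.21. Adora1 and P2rx7 had log2 fold changes of -0.73 ± 0.35 and -0.41 ± 0.22 (edgeR adjusted p 0.731 and 0.749). P2ry2, which responds to ATP and UTP, stood at 85.0 to 169.7 CPM in VSG and 26.7 to 81.4 CPM in SPF in the 7 libraries. Its log2 fold change was 0.93 ± 0.39 (edgeR adjusted p = 0.704), 0.56 without SPF 5, and 1.03 over all 10 libraries. Adora2b, an adenosine receptor, was under the filter in the 7 libraries, at most 0.858 CPM, and stood at 5.07 to 8.34 CPM in the other 3; it was picked after its values were seen.

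Genes of purine synthesis from small precursors mostly had lower values in VSG in the 7 libraries. Of 13 genes, 12 had lower values there and 0 were called. The median log2 fold change was -0.33, against -0.05 for all genes tested, and -0.15 without SPF 5, against -0.03 for all genes. Also 12 of 13 were lower with each other scaling, and 11 or 12 with any library left out. The share of all genes with lower values was not counted. Paics, an enzyme of the middle of the pathway, stood at 16.8 to 22.7 CPM in VSG and 26.6 to 32.3 CPM in SPF, a log2 fold change of -0.49 ± 0.16 (edgeR adjusted p = 0.633). Impdh2, which commits IMP to guanine nucleotides, had 49.0 to 74.8 CPM in VSG and 77.6 to 94.98 CPM in SPF (-0.43 ± 0.18, edgeR adjusted p = 0.704). Prps2, which makes the activated ribose, had a log2 fold change of -0.43 ± 0.19. The B and T cell markers had fold changes below 0 in the same libraries, and their part in these values was not tested. In the 10-library fit 10 of the 13 were lower. At the end of purine breakdown, the urate carriers Abcg2 and Slc2a9 had log2 fold changes of 0.21 and 0.38 in the 7. Abcg2 stood there at 373 to 447 CPM in VSG and 287.5 to 418 in SPF. In the 3 libraries with high Gata4 it had 141 to 180.5 CPM. Of 12 tested pyrimidine nucleoside enzymes, 4 were higher and 8 lower in the 7 libraries (7 higher and 5 lower without SPF 3), and 0 reached an unadjusted p under 0.05.

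**Figure D4:**
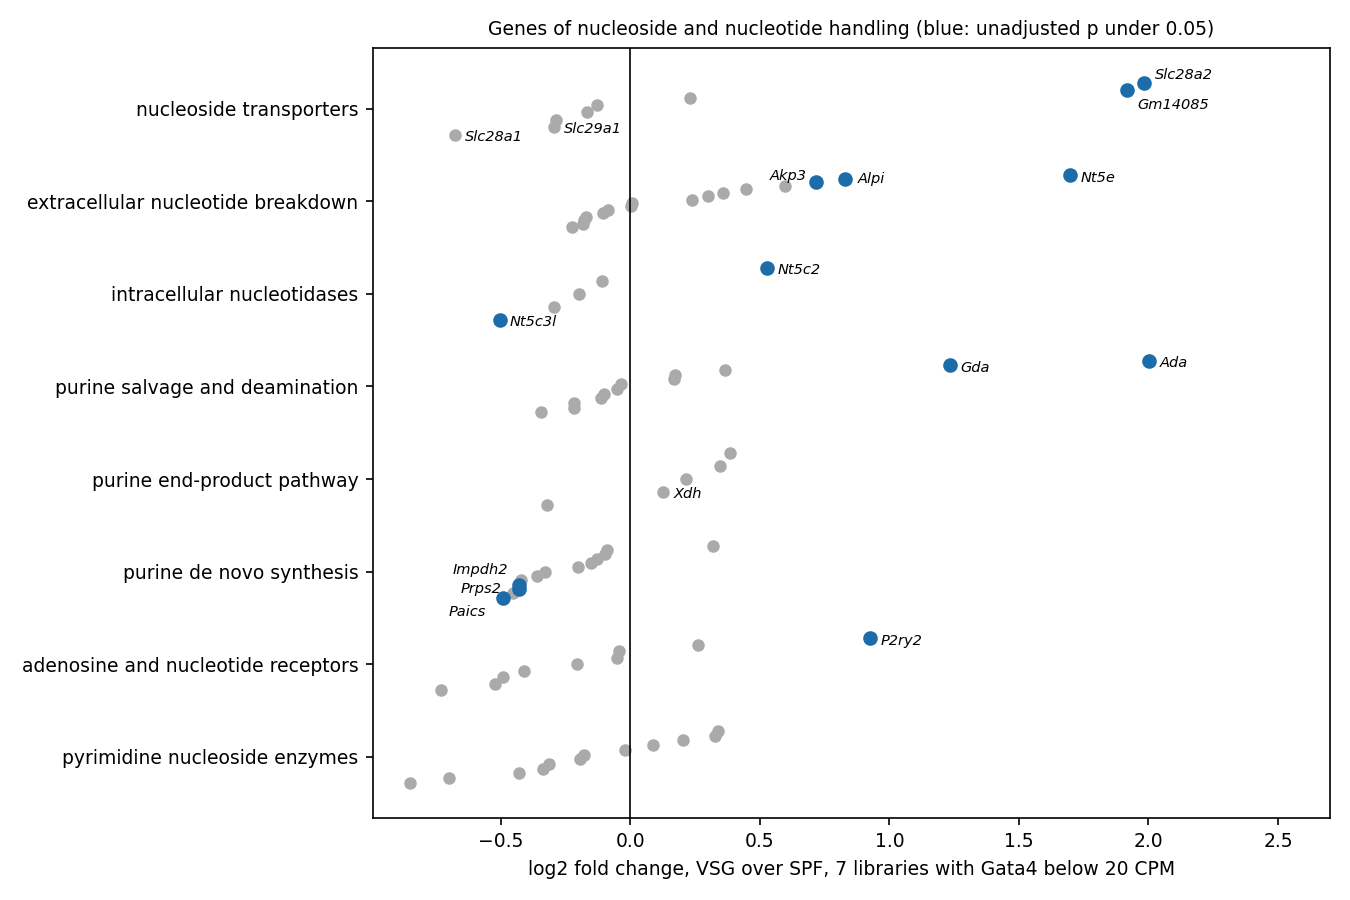
Log2 fold change of VSG over SPF in the 7 libraries with Gata4 below 20 CPM (horizontal axis) for the tested genes of 8 lists (rows), 1 point a gene, blue for an unadjusted edgeR p under 0.05. Slc28a2, Gm14085, Nt5e and Ada lie at 1.70 to 2.00, and Gda at 1.23. All of these but Gda were chosen on this contrast, so nothing is read from their distance to the other genes. Below 0 lie 12 of the 13 genes of purine synthesis, where the median of all genes tested is -0.05.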

How the data were processed

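The 10 libraries were made from total RNA of terminal ileum with the Illumina TruSeq kit and read as single-end 50-base reads, per the labels' protocols. Groups and replicate numbers come from the sample titles. For every library the authors deposited estimated counts by Ensembl gene, in files named for RPKM whose values are on the scale of reads (61.18% whole numbers, of 36401 genes 10315 with no count in any library). A second file per library, as the authors deposited it, holds log2 values of the same counts, scaled per library and centred on the sham median of each gene. The submitters' processing notes name mm9 as genome build and DESeq without a version. Aligner, counting tool and strand setting are not given in the sources used here; overlapping genes on opposite strands therefore cannot be told apart.

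After rounding to whole numbers, the counts of all genes that passed filterByExpr were fitted with edgeR 4.0.16 in R 4.3.3. The fit used TMM factors, surgery alone in the model and the quasi-likelihood test. P-values were adjusted by Benjamini-Hochberg over all genes tested, and 0.05 was the threshold. CPM were scaled by TMM, with 2 added as prior count for logs. The SE was taken as log2 fold change divided by the square root of F, and intervals hold 95%. The same fit was repeated on the libraries with Gata4 below 20 CPM. DESeq2 1.42.0, limma-voom and limma on the deposited log2 values (limma 3.58.1), other scalings and filters, a replicate block, summed copies, a Gata4 covariate and each library left out were alternatives. The edgeR procedure was tested on simulated data.

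The 7 genes and all lists were chosen with earlier results of these data known. Besides them and Gata4, the rule names up to 3 genes per list and fit, by lowest p among those averaging 1 CPM or more, and the 3 genes nearest to Slc28a2 and to Nt5e among those averaging 5 CPM or more. Exceptions are marked where they are named. Urah and Urad of the lists were not found under these symbols. Promoters are those of RefSeq (GRCm38.p6), found for 6 of the 7 genes. Transcripts come from GENCODE M21.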

Additional observations from a re-analysis of the deposited data

Results flagged for a closer look

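Among 21 groups of values tested for a library far from the others, of which chance flags about 1 in 20, 2 stood out. Nt5e stood at 236.4 CPM in SPF 2, against 83.68 CPM in the next highest of the 5 SPF libraries. Slc28a1 stood at 123.6 CPM in VSG 2, against 30.56 CPM in the next highest of the 5 VSG libraries. Both are libraries with Gata4 above 20 CPM. So is SPF 4, which had the lowest Nt5e value of all 10 libraries, 48.0 CPM.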

How the results depend on the processing

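Over all 10 libraries the fold changes of Slc28a2, Gm14085, Nt5e, Ada, Slc28a1 and Slc29a1 kept their sign in every alternative run, and none was called. That of Xdh ran from -0.50 to 0.054 with each library left out, turning without SPF 4, and was 0.063 with the Gata4 class as a covariate. With each library left out, the log2 fold change of Slc28a2 ran from 0.75 to 1.44 and that of Nt5e from 0.88 to 1.63. Genes called numbered 11 with DESeq2 and 0 in the other alternatives. In the 7 libraries with low Gata4, edgeR called 0 genes, against 4 with no filter on low counts, 83 with DESeq2, 2 with limma-voom and 0 to 2 with each library left out (2 without VSG 4). There Slc28a2 passed the threshold with no filter (1.98), DESeq2 (2.00) and limma-voom (1.96), and Nt5e with no filter (1.69) and DESeq2 (1.71). Adjusted p ran up to 0.619 for both, in the edgeR fit with the replicate block, which left out VSG 4. With each library left out the log2 fold change ran from 1.81 to 2.09 for Slc28a2 and from 1.56 to 1.80 for Nt5e. Gm14085 passed with no filter (1.91) and DESeq2 (1.93), and Ada with DESeq2 (2.01). With each library left out, Xdh ran from -0.031 (without VSG 5) to 0.25, and Slc28a1 from -1.91 to 1.70 (without SPF 5). The causes were not tested.

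Upper quartile scaling and library totals moved the median log2 fold change of all genes from -0.05 to -0.10 and -0.11 over 10 libraries and to -0.14 and -0.15 over the 7. The share of higher values among genes with unadjusted p under 0.05 was 49.6% with TMM, 30.4% with upper quartile and 32.2% with library totals over 10 libraries, and 53.1%, 27.6% and 28.6% over the 7. Such genes numbered 595 over 10 libraries, 1940 without SPF 3 and 1135 without VSG 2. Over the 7 they numbered 1107, and 3305 without SPF 3. With the replicate block, which left out VSG 4, they numbered 528.

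No pairing of the libraries by replicate number was seen. Same-numbered libraries correlated at -0.418 to 0.363 over 5 pairs and -0.0998 to 0.0439 over 3. Of these pairs, 0 of 5 and 1 of 3 correlated best with their own number. With so few pairs, and both Gata4 classes among the 5, this check cannot exclude a pairing. With the replicate block the log2 fold change was 1.23 for Slc28a2 and 1.30 for Nt5e over 10 libraries. Among libraries with low Gata4 the block held 3 pairs and left out VSG 4, and the values were 2.01 and 1.81. In both block fits 0 genes were called. Shared reads limit the single values of Slc28a2 and Gm14085. Slc28a1 spread widely between the libraries with low Gata4, from 2.11 CPM in VSG 1 to 47.3 CPM in SPF 5. Its lowest library had 54 estimated counts.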
